A study of Mus musculus with 4 samples.

Results

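Pericytes and vascular smooth muscle, the mural cells of blood vessels, were sought among 62665 cells of uninjured and injured mouse tibial muscle by 4 transcripts. A cell was taken when it held at least 3 unique molecular identifiers (UMIs, counted RNA molecules) of Rgs5, Notch3, Kcnj8 and Abcc9 together, none of Ptprc, Cdh5 or Pdgfra, and at most 10% mitochondrial UMIs. Of the 59824 cells with at most 10% mitochondrial UMIs, 1472 met the rule, and they are called gated cells below. The members were thus selected on the measured counts of these genes. The 3 genes required at 0 mark leukocytes (Ptprc), endothelium (Cdh5) and mesenchymal progenitors (Pdgfra). The study followed heterotopic ossification, the formation of bone in soft tissue, after cardiotoxin, a snake venom toxin, had damaged the tibial muscle of Nse-Bmp4 mice.

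The mice were C57BL/6 of 6 to 8 weeks, and all 4 groups carried the transgene, in which the neuron-specific enolase promoter (Nse) drives bone morphogenetic protein 4 (Bmp4). Wild-type muscle was not part of the libraries used here. The groups were Uninjured muscle and muscle taken 1 day, 3 days or 7 days after cardiotoxin (dpi, days post injury). Each group was 1 library from 3 tibial muscles pooled before collagenase digestion, so there were no replicates, a difference between time points could not be told apart from a difference between libraries, and no p-value is given. Intervals are 95% intervals (exact Poisson for a level, exact binomial for a share or a ratio) and cover counting error only. Levels are in CPM, the UMIs of a gene over all UMIs of the cells summed, on the per-million scale. In digested tissue, fewer cells of a type and poorer release of that type cannot be told apart.

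Mural cells wrap the endothelial tube. Vascular smooth muscle rings arteries and veins and sets vessel calibre through the actomyosin genes Acta2, Tagln and Myh11, whereas pericytes lie on capillaries within the basement membrane. Endothelial Pdgfb recruits them through the receptor Pdgfrb, and endothelial Jagged and Delta-like ligands signal to Notch3, whose target is Heyl. Kcnj8 and Abcc9, neighbours on chromosome 6, encode the pore and the regulatory subunit of an ATP-sensitive potassium channel, and Rgs5 encodes a regulator of G-protein signalling. In resting muscle Notch3 is also known from satellite cells, the muscle stem cells.

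The libraries differed in how many cells met the rule. In Uninjured muscle 182 of 11827 cells did (1.54%, interval 1.32 to 1.78%). At 1 dpi 70 of 10853 cells did (0.645%) and at 3 dpi 100 of 14118 (0.708%). At 7 dpi 1120 of 23026 cells did (4.86%, 4.59 to 5.15%). The libraries held 112317902, 91146335, 116346301 and 129007669 UMIs from Uninjured to 7 dpi. The median gated cell held 7868, 6445, 7548 and 3860 UMIs in the same order, so the most numerous gated cells, those of 7 dpi, were also the shallowest. Their median mitochondrial share was 3.75%, 4.95%, 5.07% and 3.00%. Among the 7.5% of each library's cells with the highest doublet scores were 12, 11, 17 and 62 gated cells (6.59%, 15.7%, 17% and 5.54%), which were kept. No cell barcode was gated in more than 1 library, and 30 to 95 barcodes of all cells were shared by a pair of libraries. Whether the barcode of a gated cell occurred among the other cells of another library was not checked.

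The 4 genes brought in different cells at different times. In Uninjured muscle 66.5% of the gated cells had UMIs of Notch3 and of none of the other 3 genes, and at 1 and 3 dpi 74.3% and 59% did. At 7 dpi 4.29% did, and 93.1% held Rgs5, which 25.3%, 14.3% and 31% held in the earlier libraries. The rule chose on these genes, so their shares are a description. At its threshold, 56, 19, 32 and 283 cells from Uninjured to 7 dpi sat at a sum of exactly 3 UMIs and were taken, and 68, 25, 61 and 436 cells sat at 2 and were left out. UMIs of 1 of the 4 genes alone were held by 70.3%, 77.1% and 67% of the gated cells before 7 dpi and by 37.2% at 7 dpi.

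Checked against markers, clusters named as mural held 438 of the 1472 gated cells (29.8%). The gated cells were clustered without reference to library. A cluster was named only when at least 3 markers of a type were detected, at a mean log2 difference from the median cluster over 1. A marker of the type also had to be among the 10 leading genes, and these were not to go against the name. One cluster of 175 cells was smooth muscle-like, led by Pln, Myh11 and Pcp4l1. A pair of clusters was pericyte-like, the larger of 231 cells with Rgs5 and Sept4 among its leading genes and the smaller of 32 cells led by Ednrb, Cd36, Vtn, Steap4, Abcc9 and Kcnj8. The pericyte markers include Rgs5, Kcnj8 and Abcc9, genes the rule used, so these names do not rest on independent genes alone. In the larger cluster Rgs5 was the only pericyte marker among the 10 leading genes, so its name depended on a gene of the rule. The genes leading it with Rgs5 included Hp, Rgs16, Adra2a, Arhgdib, Serpine2, Dlk1 and Agt. Of the pericyte markers outside the rule, Higd1b had UMIs in 64.1% of cells of the larger and 65.6% of the smaller cluster, and in 16.0% of the fibroblast-like cluster. Vtn had UMIs in 36.8%, 78.1% and 10.8% of the cells of these clusters, whose median cells held 7465, 1544 and 4342 UMIs. Satellite-like clusters held 160 cells with Chodl and Cdh15. A fibroblast-like cluster held 306 cells, a chondrocyte-like cluster with Col2a1 and Acan 187 and a Schwann-like cluster 19, and clusters of 362 cells in all stayed unnamed, among them 98 cells led by Cd74 and Lyz2 and 29 led by S100a9 and S100a8. The mural clusters made up 119 of 182 gated cells in Uninjured muscle (65.4%), 21 of 70 at 1 dpi (30%), 32 of 100 at 3 dpi (32%) and 266 of 1120 at 7 dpi (23.8%). The satellite-like cells were the larger part at 1 and 3 dpi, 40 and 55 cells, and at 7 dpi the fibroblast-like, chondrocyte-like and unnamed cells numbered 280, 187 and 353. Of all cells within the mitochondrial limit, the mural clusters held 1.01%, 0.193%, 0.227% and 1.16% from Uninjured to 7 dpi.

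**Figure D1:**
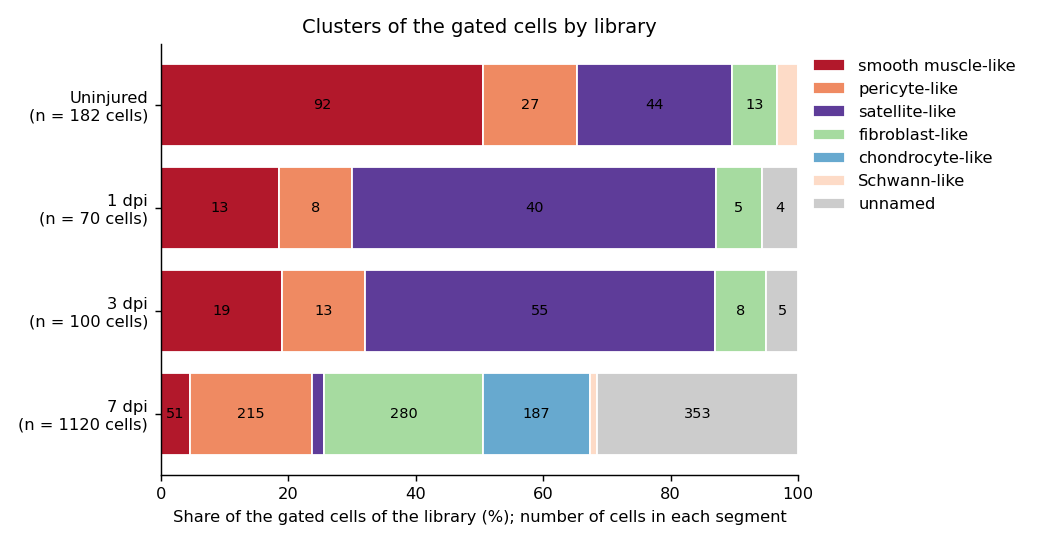
Share of the gated cells of each library (%, horizontal axis) that fell in each cluster class, with the number of cells in each segment. Mural classes held 119 of 182 cells in Uninjured muscle and 266 of 1120 at 7 dpi, and satellite-like cells held 40 of 70 and 55 of 100 at 1 and 3 dpi.

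**Figure D2:**
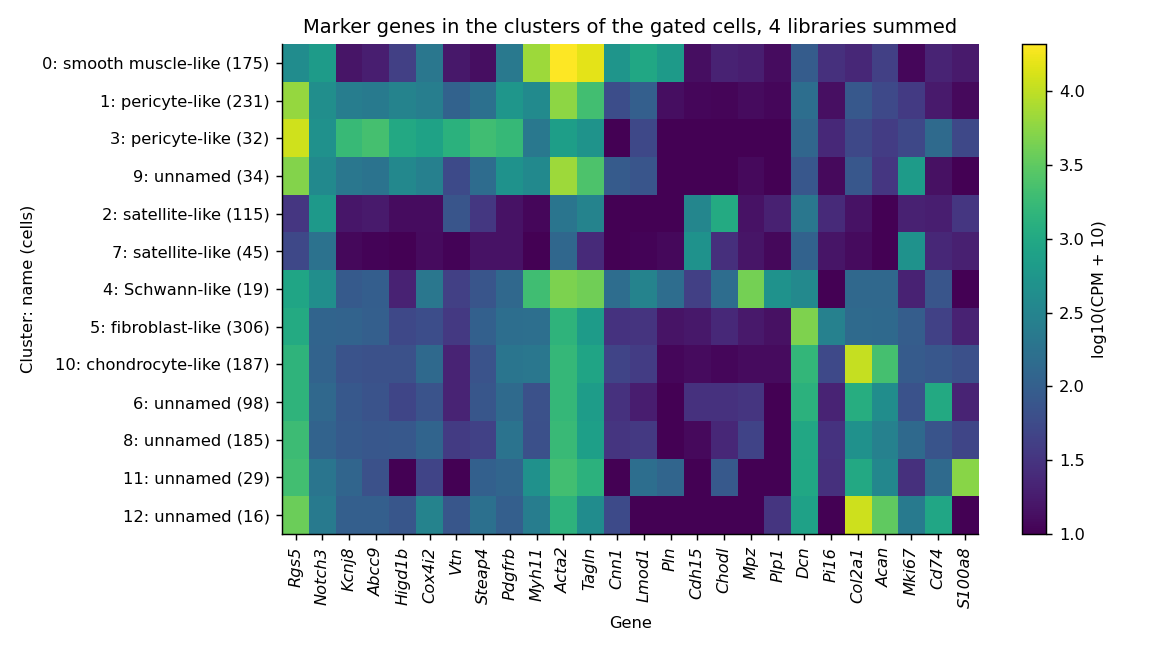
Summed level of marker genes in each of the 13 clusters, as the log10 of CPM with 10 CPM added (colour), with the number of cells of the cluster in brackets. Rgs5 was present in every cluster, at 400 CPM in the smooth muscle-like cluster and 6169 and 12088 CPM in the pericyte-like clusters.

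The defining genes of other cell types moved with the gate. Over the gated cells, the 6 satellite genes summed to 460, 1268, 1066 and 68.9 CPM from Uninjured to 7 dpi, with all 6 detected in every library. The 7 chondrocyte genes summed to 8.4, 0, 5.13 and 2628 CPM, all 7 detected at 7 dpi and none at 1 dpi. The 8 fibroblast genes summed to 9901, 3308, 2893 and 17873 CPM, and the 6 macrophage genes to 5.6, 139, 32.3 and 183 CPM. Comparisons over all gated cells therefore set different mixtures of cells beside each other, and the part of these other cells in them was not tested beyond the splits given here.

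Over all gated cells the 3 comparisons with Uninjured, which share that 1 library, read as follows. A gene was tested with at least 20 UMIs over the 2 libraries compared and called at a 2-fold difference. Counting error alone can take a gene with so few UMIs past 2-fold, and a gene can pass the minimum through the library where it is high, so a count of called genes is a description and no test. At 1 dpi 13.7% of 8523 genes were called higher and 8.81% lower. At 3 dpi 21.4% of 9751 genes were higher and 13.4% lower (34.8% either way), and at 7 dpi 18.2% of 11692 were higher and 10.9% lower. The median log2 ratio was 0.09, 0.18 and 0.06 over the tested genes and 0.12, 0.24 and 0.08 over those with a UMI in both libraries, and the latter is the median gene by which counts are scaled below. Size factors taken over the 4 summed profiles, another scaling, gave 746 higher and 1178 lower genes at 1 dpi in place of 1168 and 751, and 1576 and 1652 at 3 dpi in place of 2082 and 1307. Genes of division and of satellite cells were among the largest differences: Mki67 stood at 7.00 CPM in Uninjured muscle and 345 at 3 dpi, and Erfe, which also led a satellite-like cluster, at 16.8 CPM in Uninjured muscle and 175 at 1 dpi. Of the contractile list, 22 genes of the smooth muscle apparatus, 7 of 21 tested genes were called lower at 1 dpi, 19 of 22 at 3 dpi and 20 of 22 at 7 dpi. The list summed to 48315 CPM in Uninjured muscle, 25909 at 1 dpi, 10113 at 3 dpi and 14983 at 7 dpi. Its ratio to Uninjured was 0.536, 0.209 and 0.310, and in the mural clusters alone it was 0.966, 0.856 and 0.368. At 7 dpi the ratio was 0.986 in the smooth muscle-like and 1.54 in the pericyte-like cells. These classes held 92 and 27 cells in Uninjured muscle and 51 and 215 at 7 dpi. The mural value of 0.368 thus also set different mixtures beside each other. Myh11, the smooth muscle myosin heavy chain, had 3 or more UMIs in 54.4% of gated cells in Uninjured muscle, 21.4% at 1 dpi, 23% at 3 dpi and 14.02% at 7 dpi. With each cell thinned to 2000 UMIs, 1 or more Myh11 UMIs were found in 62.0%, 29.2%, 27.6% and 23.1%, after 16, 5, 13 and 218 shallower cells were left out.

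The basement membrane list, 14 genes of the collagen IV and laminin sheath, had another direction at 1 and 3 dpi in the mural clusters. Over all gated cells it summed to 7790 CPM in Uninjured muscle, 4001 at 1 dpi, 2808 at 3 dpi and 13359 at 7 dpi, ratios of 0.514, 0.361 and 1.71. At 1 dpi 1 of its 14 genes was called lower and none higher, and its median log2 ratio was 0.05, of the other sign than the sum. At 3 dpi 8 genes were lower and none higher, and at 7 dpi 7 were higher and 2 lower. In the mural clusters alone the ratios were 1.14, 1.37 and 3.04. They were 1.15, 1.39 and 2.24 in the smooth muscle-like cells and 0.705, 0.762 and 1.13 in the pericyte-like cells. The mural clusters held these classes in different proportions in each library, so their ratios also compare different mixtures. Over gated cells without those that held satellite, chondrocyte or Schwann genes the ratios were 0.686, 1.07 and 1.65, so the sum at 1 dpi was still lower there. The smooth muscle-like and the pericyte-like cells are described separately below.

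The smooth muscle-like cells numbered 92 in Uninjured muscle, 13 at 1 dpi, 19 at 3 dpi and 51 at 7 dpi, all in the same cluster. Their summed UMIs were 815892, 155939, 132062 and 347738, and their median cells held 8786, 11488, 5810 and 6498 UMIs. Because the cluster was found by these genes among others, its contractile levels describe the cells that were called smooth muscle-like and could not have been low. The satellite list summed to 24.5, 0, 53 and 8.63 CPM and the fibroblast list to 1088, 1032, 1189 and 2899 CPM, with 4 of its 8 genes called higher and none lower at 7 dpi and Col1a1 the most abundant there, and their part in the results was not tested. Of the endothelial list only Esam, which mural cells also express, was detected in any library. The chondrocyte list reached 196 CPM at 7 dpi, with Acan, its most abundant gene there, at 89.1 CPM.

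Within these cells the contractile genes were at like levels in the 4 libraries. Acta2, alpha smooth muscle actin, stood at 21082 CPM in Uninjured muscle, 22393 at 1 dpi, 18984 at 3 dpi and 20645 at 7 dpi. Myh11 stood at 7000, 8465, 6830 and 5881 CPM, lowest at 7 dpi. Tagln, an actin-binding protein of smooth muscle, stood at 14664, 15833, 14531 and 17502 CPM, highest at 7 dpi. The whole list summed to 80128, 85303, 76017 and 79045 CPM, ratios to Uninjured of 1.06 (1.04 to 1.08), 0.949 (0.929 to 0.969) and 0.986 (0.973 to 1.00). Of the list's tested genes, 4 of 21 were called higher and 1 lower at 1 dpi, 1 higher and 2 lower of 21 at 3 dpi, and 1 higher and 2 lower of 22 at 7 dpi. Over all genes in these cells the shares called higher and lower were 8.06% and 12.8% at 1 dpi, 8.5% and 13.3% at 3 dpi, and 6.03% and 5.51% at 7 dpi. The list's median log2 ratios were 0.11, −0.04 and −0.07, beside −0.01, −0.01 and 0.00 over all genes.

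A few contractile genes departed from this. Mylk, the kinase that switches on smooth muscle myosin, stood at 2531, 4996, 3650 and 2447 CPM, and Cnn1, the calponin of differentiated smooth muscle, at 380, 795, 568 and 739 CPM. Of the Cnn1 UMIs at 1 dpi 40.3% came from 1 cell, so that value rests on few cells. Kcnmb1, a subunit of the calcium-activated potassium channel, stood at 50.3, 180, 121 and 77.6 CPM. Rergl, a small GTPase-like protein of arterial smooth muscle, stood at 71.1 CPM in Uninjured muscle, 0 at 1 dpi, 7.57 at 3 dpi and 34.5 at 7 dpi. Its 0 at 1 dpi allows a level of up to 19.2 CPM (3 UMIs in that library's cells), so it was at least 3.70-fold lower than in Uninjured muscle. Actg2, the gamma smooth muscle actin of visceral muscle, went the other way and stood at 7.35, 44.9, 53 and 224 CPM, with all its UMIs at 1 and at 3 dpi from 1 cell. T and B cells, taken by Cd3e and Cd3d or by Cd79a (595, 1995, 992 and 581 cells, with medians of 3284, 3374, 2785 and 2197 UMIs), served as cells that should lack mural transcripts. In them Actg2 stood at 1.31, 0.584, 0.453 and 32.5 CPM.

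**Figure D3:**
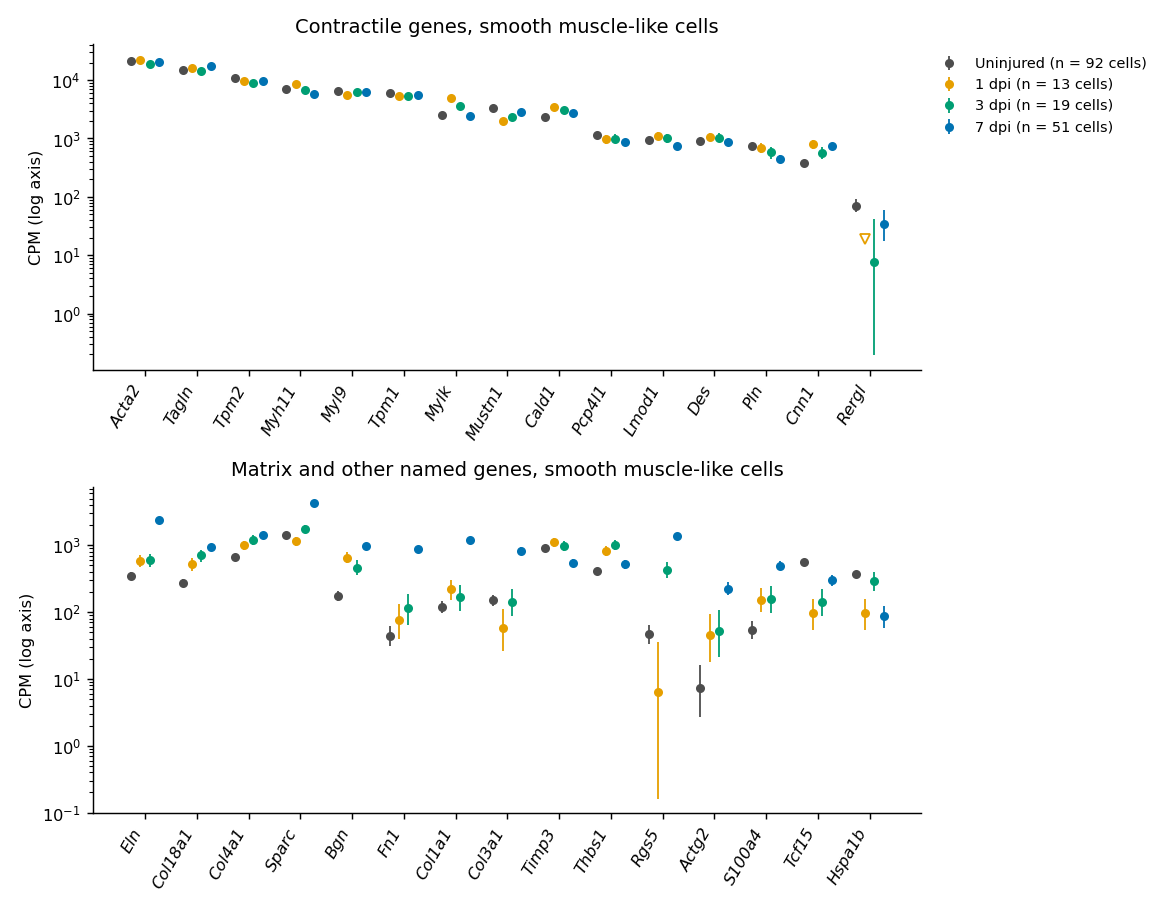
Levels (CPM, log axis) of contractile genes (upper panel) and of matrix and other named genes (lower panel) in the smooth muscle-like cells of each library, 92, 13, 19 and 51 cells from Uninjured to 7 dpi, with 95% Poisson intervals as bars and open triangles at 3 UMIs for a gene at 0. Acta2 lay between 18984 and 22393 CPM in the 4 libraries, while Col18a1 went from 277 to 937 CPM.

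Serum response factor and myocardin act on smooth muscle genes through the CArG box, and the promoter of Myl9, the regulatory light chain of smooth muscle myosin, shows what such a box looks like in this list. Myl9 (GRCm38 chromosome 2, 156775420 to 156781658, plus strand) stood at 6572, 5579, 6262 and 6364 CPM in the smooth muscle-like cells. The stretch below is from RefSeq, build GRCm38.p6, chr2:156775273-156775342, plus strand, upstream of the gene, with the box in capitals at 161 to 152 bases before the RefSeq start.
Myl9: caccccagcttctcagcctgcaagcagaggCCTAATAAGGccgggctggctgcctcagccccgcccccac
The motif searched on both strands was CC, 6 bases that are each A or T, and GG. It was found in 2 of 18 promoter windows of the contractile list, those of Myl9 and Rergl, and in 535 of 32851 windows of the same length over all genes (1.63%). For Rergl it lay 49 to 40 bases before the RefSeq start. A match is a description of the sequence, and windows of Myh11 and Tagln were not analysed here.

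Matrix genes of the smooth muscle-like cells were higher at 7 dpi than in Uninjured muscle. The basement membrane list summed to 4042 CPM in Uninjured muscle, 4630 at 1 dpi, 5611 at 3 dpi and 9041 at 7 dpi, ratios of 1.15, 1.39 and 2.24. Of 11 tested genes 0, 1 and 4 were called higher and none lower, at 1 and 3 dpi a share near that of all genes. Col18a1, the collagen of vessel basement membranes from which endostatin is cut, stood at 277, 526, 704 and 937 CPM, the order of the time points. It was 3.38-fold higher at 7 dpi than in Uninjured muscle (2.85 to 4.03), and 5.52% of its UMIs at 7 dpi came from 1 cell. Col4a1, a chain of the collagen IV network, stood at 663, 1007, 1204 and 1403 CPM, also in that order. Sparc, a collagen-binding glycoprotein, stood at 1401, 1148, 1772 and 4233 CPM. In T and B cells, which should lack these transcripts, Col18a1 stood at 26.2, 13.1, 15.2 and 40.03 CPM and Col4a1 at 302, 164, 142 and 114 CPM, while Sparc stood at 3583, 637, 2093 and 3978 CPM. The Sparc levels of the smooth muscle-like cells in Uninjured muscle, at 3 dpi and at 7 dpi thus lay near or under those of T and B cells, and those of Col18a1 and Col4a1 lay over them in all 4 libraries. Sparc belongs to the basement membrane list, so the list's sums and ratios rest in part on levels not clear of T and B cells.

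The interstitial matrix list, 20 genes of fibrillar collagen and its partners, showed the same split. It summed to 2934, 4450, 4528 and 7992 CPM in the smooth muscle-like cells. At 1 dpi 4 of 12 tested genes were called higher and 1 lower, and at 3 dpi 6 of 14 higher and none lower. At 7 dpi 15 of 19 tested genes were called higher and none lower. Over all genes in these cells 8.06%, 8.5% and 6.03% were called higher and 12.8%, 13.3% and 5.51% lower from 1 to 7 dpi. Eln, elastin, the elastic core of arteries, was named by the rule for large differences, and it stood at 352, 584, 598 and 2364 CPM. That was 6.72-fold higher at 7 dpi (5.87 to 7.71), against 71.0, 19.5, 45.7 and 119 CPM in T and B cells. Col1a1, the chain of collagen I, stood at 119, 218, 167 and 1196 CPM in the smooth muscle-like cells and at 1281, 270, 1170 and 4090 CPM in T and B cells, higher there in each library. Bgn, biglycan, stood at 175, 654, 462 and 963 CPM in the smooth muscle-like cells and at 178, 126, 501 and 902 CPM in T and B cells, so only its 1 dpi value stood clear, with 30.4% of those UMIs from 1 of 13 cells. The part of free RNA in the Col1a1 and Bgn levels was not tested.

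Other genes differed from Uninjured muscle at 1 or more time points. Tcf15, a transcription factor and one of the genes that led the cluster, stood at 567 CPM in Uninjured muscle, 96.2 at 1 dpi, 144 at 3 dpi and 299 at 7 dpi. It was 5.90-fold lower at 1 dpi (3.54 to 10.6) and 3.94-fold lower at 3 dpi (2.50 to 6.61), and T and B cells held 0.682 and 0.679 CPM of it at those times. Adamts1, a matrix metalloprotease, stood at 369, 1353, 969 and 498 CPM, highest at 1 dpi. Tgfb3, a transforming growth factor beta ligand, stood at 154, 507, 416 and 127 CPM, with 35.4% and 47.3% of its UMIs at 1 and 3 dpi from 1 cell. Crispld2, a secreted glycoprotein, stood at 520, 1090, 1908 and 1372 CPM, highest at 3 dpi. Clu, the extracellular chaperone clusterin, stood at 42.9, 667, 53 and 109 CPM, and 44.2% of its UMIs at 1 dpi came from 1 cell.

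Several receptors and relays of vessel tone were lower at 3 dpi. Gucy1a1 and Gucy1b1 encode the subunits of soluble guanylate cyclase, the nitric oxide receptor that relaxes smooth muscle. Gucy1a1 stood at 1251, 891, 568 and 1018 CPM and Gucy1b1 at 336, 289, 136 and 230 CPM, both lowest at 3 dpi. Of 11 tested vasoactive genes 4 were called lower at 3 dpi, these 2 with Ptger3 and Tbxa2r, and none higher. At 1 dpi 1 of 11 was lower and none higher, and at 7 dpi 2 of 13 were higher and 1 lower. In the smooth muscle-like cells 8.06%, 8.5% and 6.03% of all genes were called higher from 1 to 7 dpi. The shares lower were 12.8%, 13.3% and 5.51%. Of 8 tested Notch genes 1, Hey2, was called higher at 1 dpi, 1, Hes1, lower at 3 dpi and none at 7 dpi, near the shares of all genes. The effector Hes1 stood at 718, 513, 318 and 575 CPM and Heyl at 99.3, 147, 90.9 and 196 CPM. Jag1, a ligand that smooth muscle also makes, stood at 259, 321, 273 and 181 CPM. Notch3, a gene of the rule, stood at 641, 821, 697 and 595 CPM. Of 6 tested BMP target genes Id2 was called higher and Id1 and Bambi lower at 1 dpi, Id1 lower at 3 dpi, and none at 7 dpi. Id1 stood at 196, 89.8, 37.9 and 124 CPM, on 5 UMIs at 3 dpi, and Id2 at 158, 507, 265 and 233 CPM, with 67.1% of its UMIs at 1 dpi from 1 cell. Of the BMP and TGF-beta receptor list 1 of 6, 1 of 6 and 1 of 7 tested genes were called higher and 0, 1 and 0 lower, Tgfbr1 being the lower one. Bmpr2, the type II BMP receptor, was the higher one at 1 and 3 dpi and stood at 42.9, 122, 144 and 69.02 CPM.

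Few interferon, inflammatory and cell cycle genes reached the minimum of UMIs in the smooth muscle-like cells. Over all genes 8.06%, 8.5% and 6.03% were called higher and 12.8%, 13.3% and 5.51% lower from 1 to 7 dpi, and with so few tested members the counts below do not set these lists apart from all genes. All 3 tested interferon genes were called higher at 1 dpi, among them Irf1, an interferon-response transcription factor, at 279, 635, 545 and 265 CPM. Of the inflammatory list none of 4 tested genes was called at 1 dpi, 2 of 5 were higher and 1 lower at 3 dpi, and 1 of 5 was higher at 7 dpi. The cytokine Il6 stood at 8.58, 57.7, 129 and 77.6 CPM, on few UMIs in each library. The immediate early list was abundant, at 22394, 21380, 19847 and 15584 CPM. Of its 10 genes Atf3 was called lower at 3 and at 7 dpi and no other gene at any time. Of the list of glycolysis and hypoxia 1 of 13, 2 of 12 and 0 of 14 tested genes were called higher and 1, 1 and 0 lower. One gene of the cell cycle list, Pcna, had enough UMIs to be tested, and it was called higher at 1 dpi, at 46.6, 115, 60.6 and 43.1 CPM. None of 3 tested genes of the PDGF list was called at any time, and Pdgfrb stood at 206, 205, 151 and 256 CPM. Of 3 tested osteochondral transcription factors Runx1 alone was called higher, at 1 dpi, and it stood at 29.4, 77.0, 30.3 and 48.9 CPM.

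Much of the Rgs5 in the smooth muscle-like cells came from single cells. Rgs5 stood at 46.6, 6.41, 432 and 1392 CPM, and 1 cell supplied 57.9%, 100%, 61.4% and 35.7% of its UMIs. T and B cells held 77.0 CPM of Rgs5 at 7 dpi. Rgs5 was one of the genes the rule chose on, so its level here is a description.

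The pericyte-like cells were 27 in Uninjured muscle, 8 at 1 dpi, 13 at 3 dpi and 215 at 7 dpi. The larger of their clusters held 15, 2, 6 and 208 of them and the smaller 12, 6, 7 and 7, so at 7 dpi the class was nearly all the larger cluster. That cluster was 90.04% cells of 7 dpi and may be that library rather than a type. The cells of Uninjured muscle were shallow, with a median of 1174 UMIs against 8699 for all cells of the library, and those of 7 dpi had 7858. Their summed UMIs were 67879, 30920, 32212 and 1834622, so the values before 7 dpi rest on few molecules. The satellite list summed to 0, 0, 31.0 and 7.09 CPM in these cells, and the fibroblast list to 5731, 1940, 5526 and 9968 CPM, with Col1a1 its most abundant gene at 7 dpi. The macrophage list summed to 14.7, 32.3, 776 and 9.27 CPM, with C1qa its most abundant gene at 3 dpi, all its UMIs from 1 cell. Pecam1, which marks endothelium, had no UMI in Uninjured muscle or at 3 dpi, and Cldn5 had none in any library.

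At 1 and 3 dpi the pericyte-like cells were few, and most mural genes were not called. Over all genes in these cells 11.9% of 852 tested genes were called higher and 23.9% lower at 1 dpi (35.8% either way), and 9.23% of 834 higher and 18.7% lower at 3 dpi (27.9% either way). Of the mural list, 17 genes fixed without those of the rule, 4 of 14 were called higher and 1 lower at 1 dpi, and 1 of 15 higher and 2 lower at 3 dpi, the latter under the shares of all genes. Scaled by the median gene, 5 were higher and 1 lower at 1 dpi and 3 higher and 2 lower at 3 dpi. Ndufa4l2, a mitochondrial subunit gene of pericytes, stood at 1930, 453, 1211 and 1087 CPM and was 4.26-fold lower at 1 dpi (2.45 to 8.01). The list's sum was 9797 CPM in Uninjured muscle, 12160 at 1 dpi and 8723 at 3 dpi. The 3 dpi ratio of 0.890 became 1.06 when scaled by the median gene, since the median log2 ratio of genes with a UMI in both libraries was −0.25. Ednrb, the endothelin B receptor, stood at 250 CPM in Uninjured muscle, 2717 at 1 dpi, 1149 at 3 dpi and 34.9 at 7 dpi. It was 10.8-fold higher at 1 dpi (6.39 to 19.5), with 44.0% of its UMIs there from 1 cell and 76.5% of those of Uninjured muscle from 1 cell. Steap4, a metalloreductase of pericytes, stood at 854, 2038, 1614 and 144 CPM. Single cells weighed on these small sets: at 1 dpi 1 of 8 cells supplied 57.9% of the UMIs of the early-response gene Fos.

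At 7 dpi several mural genes were lower in the pericyte-like cells and interstitial matrix genes higher. These cells held most of the UMIs, so a gene could pass the minimum through 7 dpi alone, which bears on every count of genes higher at 7 dpi below. Over all genes 22.8% of 8052 tested genes were called higher and 20.3% lower (43.1% either way), and the median log2 ratio was −0.06 over the tested genes and −0.26 over those with a UMI in both libraries. Of the mural list 10 of 17 genes were called lower and none higher, with a median log2 ratio of −0.996 (8 lower when scaled by the median gene). Timp3, an inhibitor of matrix metalloproteases, stood at 4862, 5466, 2018 and 204 CPM and was 23.8-fold lower at 7 dpi than in Uninjured muscle (20.5 to 27.7). Vtn, vitronectin, stood at 825, 938, 590 and 95.4 CPM, and Cxcl12, the chemokine that retains blood progenitors, at 840, 1294, 1056 and 36.5 CPM. Pdgfrb, the receptor for endothelial PDGF, stood at 1017, 1940, 931 and 536 CPM, present in all 4 libraries. Higd1b, a mitochondrial protein gene much used as a pericyte marker, stood at 840, 776, 714 and 286 CPM. T and B cells at 7 dpi held 76.1 CPM of Timp3, 91.6 of Cxcl12 and 6.23 of Vtn, so the Cxcl12 level of the pericyte-like cells at 7 dpi lay under the level of cells that should lack it.

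The larger and the smaller pericyte-like cluster had different levels at 7 dpi. In the larger cluster Timp3 stood at 5900 CPM in Uninjured muscle and 194 at 7 dpi, 30.4-fold lower (25.8 to 35.7), and Vtn at 751 and 82.2 CPM. In the 7 cells of the smaller cluster at 7 dpi Timp3 stood at 1990 CPM, Vtn at 2487, Steap4 at 1990 and Cxcl12 at 2089 CPM. In its 12 cells of Uninjured muscle the levels were 2785 CPM for Timp3, 972 for Vtn, 796 for Steap4 and 1636 for Cxcl12. Cells of the smaller cluster were present in all 4 libraries, with Steap4 at 796, 2574, 2987 and 1990 CPM from Uninjured to 7 dpi. The lower class values at 7 dpi came from the 208 cells of the larger cluster. The clusters were found on genes such as Vtn, Steap4 and Cxcl12, so the contrast between the clusters is a description. Within the larger cluster 1 of 17 mural genes was called higher and 7 lower at 7 dpi, beside 30.3% and 21.5% of 7992 genes. Scaled by the median gene, which stood at a log2 ratio of −0.38 in this cluster, 2 were higher and 6 lower. That contrast sets 208 cells against 15.

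Acta2 and interstitial matrix genes were higher in the pericyte-like cells at 7 dpi. Acta2 stood at 1679, 614, 2794 and 5818 CPM, and in the larger cluster it went from 2121 to 5846 CPM, 2.76-fold higher (2.25 to 3.41), against 375 CPM in T and B cells at 7 dpi. The contractile list as a whole was mixed, with 4 of 18 tested genes called higher and 4 lower at 7 dpi (5 and 2 when scaled by the median gene). The ratio of its sums was 1.54, or 1.86 when scaled by the median gene. Col18a1 stood at 177, 517, 497 and 1456 CPM, 8.24-fold higher at 7 dpi (4.71 to 16.0), and T and B cells held 40.03 CPM of it there. Its UMIs at 1 and at 3 dpi came mostly from 1 cell in each library, and in Uninjured muscle it had 12 UMIs, 33.3% of them from 1 cell. Bgn stood at 457, 388, 621 and 2537 CPM against 902 CPM in T and B cells at 7 dpi. Thy1, a surface glycoprotein of stromal cells, stood at 88.4, 64.7, 373 and 838 CPM, from 6 UMIs in Uninjured muscle, 50% of them from 1 cell. Runx1, a transcription factor of blood and of the osteochondral lineage, stood at 14.7, 97.0, 155 and 255 CPM, from 1 UMI in Uninjured muscle. The interstitial matrix list summed to 11388, 9832, 11021 and 26613 CPM, and of its 20 genes 15 were called higher and 1, Timp3, lower. At 7 dpi Col1a1 stood at 5193 CPM against 4090 in T and B cells, Col3a1 at 3817 against 3902 and Fn1 at 938 against 1131 CPM, with Col3a1 and Fn1 below the T and B cell level. The part of free RNA was not tested. Of 14 basement membrane genes 3 were called higher and none lower, no more than the share of all genes, at a ratio of the sums of 1.13, and Col4a1 stood at 2107, 2490, 2577 and 3046 CPM.

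**Figure D4:**
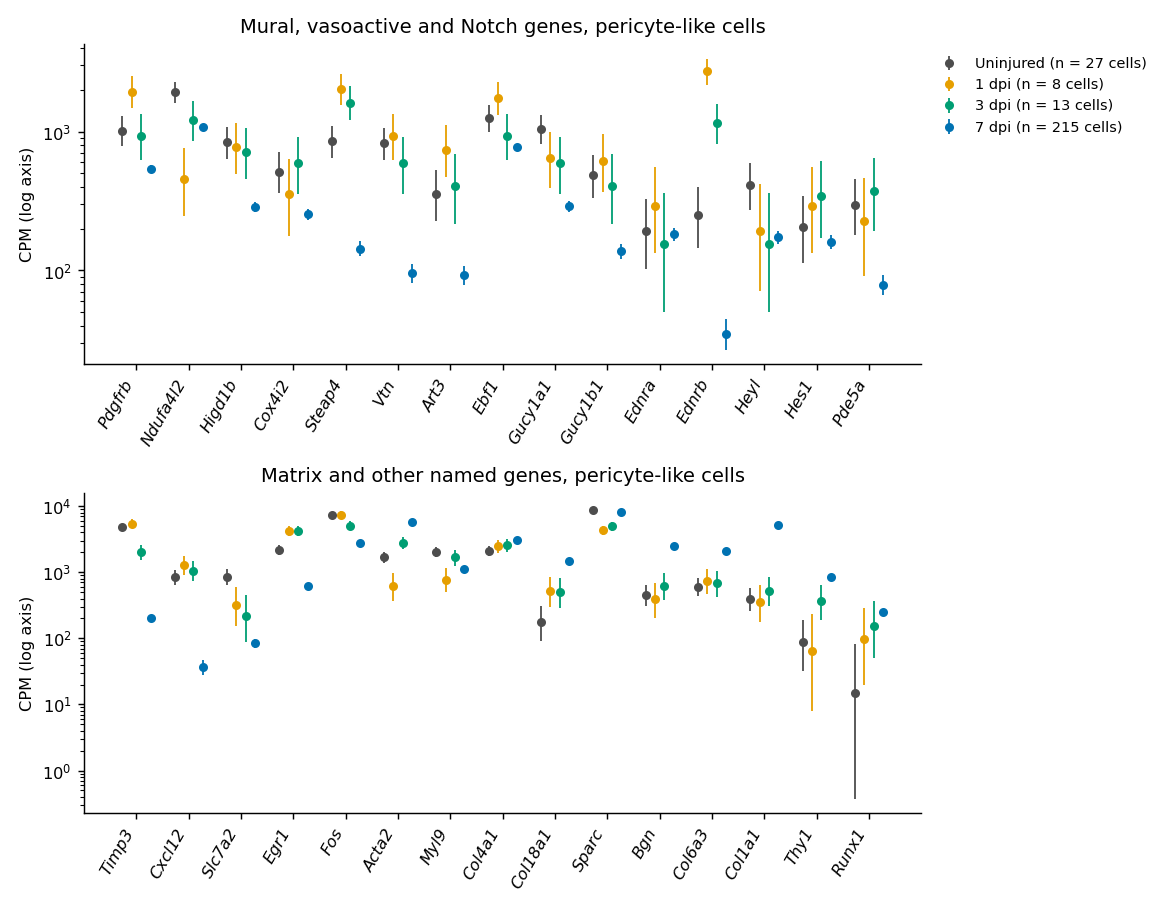
Levels (CPM, log axis) of mural, vasoactive and Notch genes (upper panel) and of matrix and other named genes (lower panel) in the pericyte-like cells of each library, 27, 8, 13 and 215 cells from Uninjured to 7 dpi, with 95% Poisson intervals as bars. The 7 dpi points lie lowest for Steap4 and Vtn (144 and 95.4 CPM) and highest for Col18a1 (1456 CPM).

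Early-response genes of the pericyte-like cells were lower at 7 dpi as well. Counts in brackets are those scaled by the median gene. Without that scaling 22.8% of all tested genes in these cells were called higher and 20.3% lower at 7 dpi. In the larger cluster alone the shares were 30.3% and 21.5%, and no share was taken for the scaled counts. Of 10 immediate early genes, which dissociation also induces, 8 were called lower and none higher (8 and none), and in the larger cluster alone 8 (4) were lower. Fos stood at 7278, 7374, 5060 and 2761 CPM and Egr1 at 2166, 4269, 4191 and 624 CPM. Fos in T and B cells stood at 4665, 2080, 1822 and 2807 CPM, lower at 7 dpi than in Uninjured muscle there too, and the part of dissociation was not tested. Of 12 vasoactive genes 2 (2) were called higher, Avpr1a and Tbxa2r, neither with a UMI in Uninjured muscle, and 5 (4) lower, among them Gucy1a1, which stood at 1046, 647, 590 and 289 CPM, and Pde5a, the cyclic GMP phosphodiesterase, at 295, 226, 373 and 78.5 CPM. In the larger cluster alone 2 (5) vasoactive genes were higher and 4 (3) lower, so the balance turned with the scaling there, and of the Notch genes 1 (1) was higher and 3 (2) lower. Of 8 Notch genes 4 (2) were called lower, among them Heyl at 412, 194, 155 and 173 CPM. Of 14 genes of glycolysis and hypoxia 7 (8) were called higher, among them Ldha at 236, 259, 248 and 524 CPM. Of 16 inflammatory genes 8 (9) were called higher and 3 (3) lower, with the chemokine Ccl2 at 206, 64.7, 404 and 550 CPM, and of 12 interferon genes none (1) was called higher and 4 (4) lower. The cell cycle list summed to 236, 420, 217 and 428 CPM, on 16, 13, 7 and 786 UMIs, too few before 7 dpi for a count of its genes. Of 6 BMP target genes 1 (2) was called higher and 1 (1) lower, and of 8 tested receptors of the BMP and TGF-beta list 2 (2) were higher and 5 (3) lower.

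**Figure D5:**
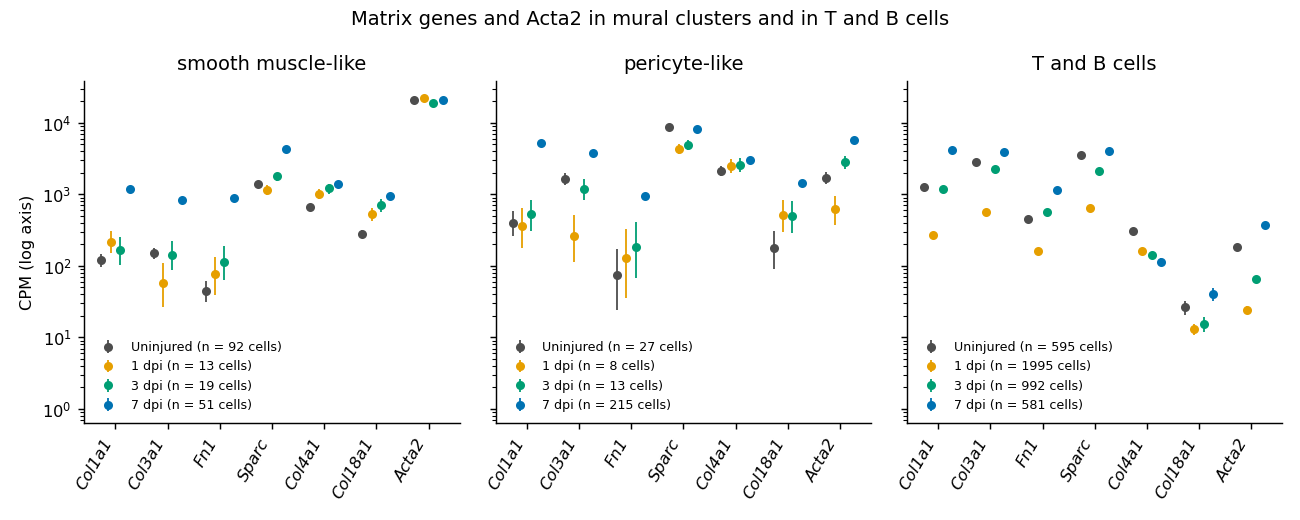
Levels (CPM, log axis) of matrix genes and Acta2 in smooth muscle-like cells, pericyte-like cells and T and B cells of each library, with 95% Poisson intervals. At 7 dpi Col1a1 stood at 4090 CPM in T and B cells against 1196 CPM in smooth muscle-like cells, whereas Col18a1 stood at 40.03 against 937 CPM.

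The ligands that reach mural cells were read in endothelial cells of the same libraries, taken by Cdh5 and Pecam1 (24, 58, 101 and 54 cells). These cells were also required to hold no UMI of Rgs5, Notch3, Kcnj8, Abcc9, Ptprc or Pdgfra. Pdgfb stood at 163, 123, 125 and 196 CPM, Dll4 at 89.0, 167, 100 and 51.8 CPM and Jag2 at 148, 204, 192 and 60.5 CPM, on 12 to 71 UMIs a value. Between Uninjured muscle and 7 dpi the intervals overlapped for Pdgfb (102 to 247 and 152 to 248). They also overlapped for Dll4 (46.0 to 155 and 30.7 to 81.9) and for Jag2 (90.6 to 229 and 37.4 to 92.4). Overlap of separate intervals does not show that levels were the same, and no ratio interval is given for these genes. In each library before 7 dpi, Dll4 and Jag2 lay over the upper ends of their 7 dpi intervals (81.9 and 92.4 CPM). Pdgfb was highest at 7 dpi. The receptor Pdgfrb stood at 0, 9.43, 16.2 and 28.8 CPM in the endothelial cells, against 1017, 1940, 931 and 536 CPM in the pericyte-like cells. Cells holding genes of the rule were left out of the endothelial set, which bears on this Pdgfrb contrast. For the same reason Notch3 was 0 there by selection, and its absence is no result.

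Transcripts of the transgene's gene, Bmp4, were hardly detected in mural cells. The smooth muscle-like cells held 0, 0, 1 and 0 UMIs of Bmp4 and the pericyte-like cells 0, 0, 0 and 1. Over all gated cells Bmp4 stood at 73.5, 128, 20.5 and 10.6 CPM, and in Pdgfra cells of the same libraries at 118, 87.1, 50.8 and 28.6 CPM. The 0 in smooth muscle-like cells of Uninjured muscle allows up to 3.68 CPM. The 0 in pericyte-like cells of Uninjured muscle, 1 dpi and 3 dpi allows up to 44.2, 97.0 and 93.1 CPM, so a level near that of the Pdgfra cells was not detectable at this depth at 1 and 3 dpi. Whether a UMI came from the transgene or from the native gene cannot be told apart in these counts.

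An unnamed cluster of 34 cells, 33 of them from 7 dpi, carried mural and division genes together. At 7 dpi it held Rgs5 at 5063 CPM, Pdgfrb at 481, Acta2 at 6929 and Mki67, a marker of dividing cells, at 660 CPM. Dcn, decorin, a fibroblast gene, stood at 69.6 CPM there. The cluster had no pericyte or smooth muscle marker among its leading genes and so was not counted with the mural clusters.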

How the data were processed

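Single-cell RNA libraries of 4 pools of digested tibial muscle were read with Cell Ranger (version 5.0.0) and STAR. The submitters' notes list mm10 and Seurat (3.1.1), and the authors deposited a matrix of UMI counts per gene and cell for each library, with 32285 genes. The study's methods name down-sampling of reads, filters on UMIs, genes and mitochondrial share, and DoubletFinder. The deposited matrices held cells above 10% mitochondrial UMIs and so precede that filter, and whether they precede the down-sampling is not given in the sources used here.

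The members and gene lists were chosen with earlier results of these data known. Counts were summed per library and cell set and scaled to CPM. Ratios to Uninjured have conditional binomial intervals. Doublets were scored with Scrublet in Scanpy (1.11.5), kept, and removed in an alternative. Gated cells were clustered with Leiden (leidenalg 0.10.2) on 2000 variable genes, 20 principal components and 15 neighbours at resolution 0.6. A name needed 3 detected markers (in at least 20% of cells), a mean log2 difference over 1 and a marker among the 10 leading genes. Named genes were list members, 20 leading genes and, per comparison and direction, the 6 with the largest ratio, given 50 UMIs or more where the gene was higher and 5 or more where it was lower, at a CPM no lower than in all other cells. A gene at 0 was set against a floor of 3 UMIs. Python 3.11.15, numpy 2.4.6, scipy 1.17.1 and pandas 2.3.3 were used, and the counting step was tested on simulated data. Some genes simulated without a change were called there. Among the sets tested, their share was largest in the smooth muscle-like cells at 1 and 3 dpi. Alternatives changed the gate, the mitochondrial limit, the doublets, the scaling (size factors), the depth, the filter, the fold, the clustering and the cells kept. The Myl9 and Rergl windows came from RefSeq promoters.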

Additional observations from a re-analysis of the deposited data

How the results depend on the processing

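With 1 library a group no value has a replicate check, and sets under 20 cells, the pericyte-like cells at 1 and 3 dpi and the smooth muscle-like cells at 1 and 3 dpi, rest on few molecules. No paired analysis was possible because each group had 1 library. The mural clusters alone were taken as an alternative after seeing the data. Values below run from Uninjured or 1 dpi to 7 dpi, and the cause of a difference was not tested unless the cells left out give it.

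The share of cells gated was 2.11%, 0.875%, 1.14% and 6.76% at a minimum of 2 UMIs, 0.803%, 0.369%, 0.354% and 2.94% at 5 UMIs, 0.457%, 0.147%, 0.234% and 3.05% with UMIs of 2 of the 4 genes, and 0.328%, 0.142%, 0.262% and 4.15% in thinned cells. A mitochondrial limit of 5% gave 1.02%, 0.425% and 0.410% before 7 dpi. Over gated cells 1919, 3389 and 3404 genes passed the 2-fold limit. The numbers were 649, 1713 and 1870 at 3-fold, 504, 1296 and 1750 with at least 100 UMIs, 1012 and 1498 at 1 and 3 dpi with UMIs of 2 of the 4 genes, 1222 and 1166 in the mural clusters alone, and 1062 and 958 in thinned cells. Without a filter 3608 passed at 1 dpi, and without cells holding satellite, chondrocyte or Schwann genes 1358 passed at 3 dpi. At 1 dpi the numbers higher and lower were 435 and 577 with UMIs of 2 genes, 663 and 647 without those cells, 560 and 662 in mural clusters, 452 and 610 in thinned cells and 225 and 279 with 100 UMIs. At 3 dpi they were 667 and 691 without those cells and 505 and 661 in mural clusters, and at 7 dpi 2109 and 2310 without a filter.

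The contractile ratio was 0.459, 0.342 and 0.401 with UMIs of 2 genes, 0.869, 0.620 and 0.275 without those cells, 0.966, 0.856 and 0.368 in mural clusters, 0.455, 0.1796 and 0.300 with size factors over the 4 summed profiles, and 0.409, 0.377 and 0.272 in thinned cells. With doublets removed it was 0.192 at 3 dpi and 0.302 at 7 dpi. The basement membrane ratio was 0.449, 0.309 and 1.07 with UMIs of 2 genes, 0.436, 0.309 and 1.66 with size factors over the 4 summed profiles, and 0.6002, 0.606 and 1.89 in thinned cells. It was 0.686, 1.07 and 1.65 without those cells, reversed at 3 dpi, and 1.14, 1.37 and 3.04 in mural clusters, reversed at 1 and 3 dpi. With doublets removed it was 0.335 at 3 dpi and 1.85 at 7 dpi. The share of gated cells with 3 or more Myh11 UMIs was 42.6% (Uninjured), 12.5% (1 dpi) and 18.1% (7 dpi) with UMIs of 2 genes. It was 73.6%, 53.8% and 51.3% before 7 dpi without those cells and 80.7%, 61.9%, 68.8% and 42.5% in mural clusters. All values given here for mural clusters compare different mixtures of smooth muscle-like and pericyte-like cells. Thinned cells with 1 or more UMIs made up 62.0% in Uninjured muscle and 23.1% at 7 dpi. The mural clusters held 119 cells of Uninjured muscle in each of the 3 other clusterings, also chosen after seeing the data, and 22 to 24, 32 to 36 and 238 to 272 cells from 1 to 7 dpi. At resolution 1 the 7 dpi share was 21.25%, and 230 of the 266 cells (86.5%) were still counted as mural.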
